A study of Homo sapiens with 3 samples.

Results

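Early-only SMAD2/3 sites were regions that scored 80 or more in a ChIP-seq library made 1.5 h after TGFβ3 was added and that shared no base with any peak, of any score, in a library made at 16 h. There were 348 of them among the 2206 peaks of the 1.5 h list, and among 5486 peaks in both lists together. They were chosen by measured values, the 1.5 h score and the missing overlap, so their number, scores and distances to 16 h peaks are given as descriptions. Of the 685 peaks that scored 80 or more at 1.5 h, early-only sites made up 50.8%, and the other 337 overlapped a 16 h peak and are called shared. No overlap with a 16 h peak was found for 74.7% of 1.5 h peaks of any score. At 16 h, 263 of 589 peaks that scored 80 or more overlapped no 1.5 h peak (44.7%), and these are called late-only. The 16 h list held 3280 peaks and the score's definition is not given, so 50.8% and 44.7% are not on an equal footing.

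SMAD2 and SMAD3 are the transcription factors that carry the TGFβ signal to the nucleus. Activated receptors phosphorylate them, they join SMAD4, and the complex binds DNA weakly at short SMAD motifs, so that partner factors and open chromatin largely set where it settles. Nuclear SMAD2/3 is known to be highest soon after stimulation and to decline later, as receptors are removed and inhibitory proteins induced by the pathway accumulate. The design compares SMAD2/3 binding late and early in this response.

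The cells were MCF10A MII, a derivative of the immortalised human breast epithelial line MCF10A that was transformed with H-Ras, grown with serum, EGF, cholera toxin, hydrocortisone and insulin. Chromatin was precipitated with 1 antibody that recognises SMAD2 and SMAD3 together, so the proteins are not told apart, after 16 h or 1.5 h with 5 ng/ml TGFβ3. All cells carry the H-Ras change, and no precipitated library of unstimulated cells was analysed here. The remaining sample, input DNA of untreated cells, was not used here. Each time had 1 library, so no value has a replicate error, and the intervals below are 95% exact Clopper-Pearson intervals that cover counting error only. No test between conditions could be made. Read depth is unknown from peak lists, so a region absent from the 16 h list may have been unbound or may have stayed under the authors' threshold there, and these cannot be told apart. Coordinates are hg19, counted from 1. Sites are given by position and not by gene, since no annotation of that build was used here.

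Early-only sites were mostly of moderate score. Their scores had a median of 104 (quartiles 89.9 and 128, highest 519), against a median of 139 for shared 1.5 h peaks of score 80 or more (quartiles 103 and 247, highest 1839). A score of 200 or more was reached by 23 early-only sites and 107 shared peaks, and a score of 300 or more by 9 and 66. Within the 1.5 h list the best-placed early-only site ranked 22nd, so the 20 highest peaks held 0 of them, the 50 highest held 7, the 100 highest held 14 and the 200 highest held 51. In the 16 h list, late-only peaks took 1 of the first 20 places, 3 of the first 50, 12 of the first 100 and 49 of the first 200.

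The share of 1.5 h peaks that were early-only was smaller in the higher score classes. It was 67.2% (interval 58.4 to 75.1%, 88 of 131) for scores of 80 to 90 and 68.2% (58.6 to 76.7%, 75 of 110) for scores of 90 to 100. In the class of 100 to 150 it was 55.0% (48.5 to 61.5%, 131 of 238), and in that of 150 to 200 it was 40.8% (29.6 to 52.7%, 31 of 76). At 200 to 300 it was 25.5% (14.7 to 39.0%, 14 of 55), and at 300 or more it was 12.0% (5.64 to 21.6%, 9 of 75). The late-only share of 16 h peaks was 61.1% at 80 to 90, 50.6% at 90 to 100 and 51.1% at 100 to 150. It was 38.5% at 150 to 200, 23.5% at 200 to 300 and 6.12% at 300 or more. In each of these classes the intervals of the early-only and the late-only share overlapped. A score class need not mean the same in both libraries, and the lists differ in length (2206 peaks at 1.5 h, 3280 at 16 h). Whether the shares of the 2 lists differ was therefore not tested.

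Early-only sites were narrower than shared peaks as a whole, but not at like scores. The median width was 214 bp for early-only sites (quartiles 165 and 296, range 46 to 879) and 281 bp for shared 1.5 h peaks of score 80 or more (quartiles 187 and 456, range 55 to 1507). Within a score class the medians lay close together. They were 171 bp for early-only sites and 169 bp for shared peaks at scores of 80 to 90, 189 and 181 bp at 90 to 100, and 238 and 230 bp at 100 to 150. At 150 to 200 they were 335 and 326 bp, at 200 to 300 they were 434 and 397 bp, and at 300 or more they were 667 and 622 bp. In every class the early-only median was slightly the larger one. Score and width went together across the 348 sites (Spearman's rho 0.63) and across the 337 shared peaks (rho 0.80). These are descriptions across peaks of 1 library, since both values come from the same read pile-up.

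**Figure D1:**
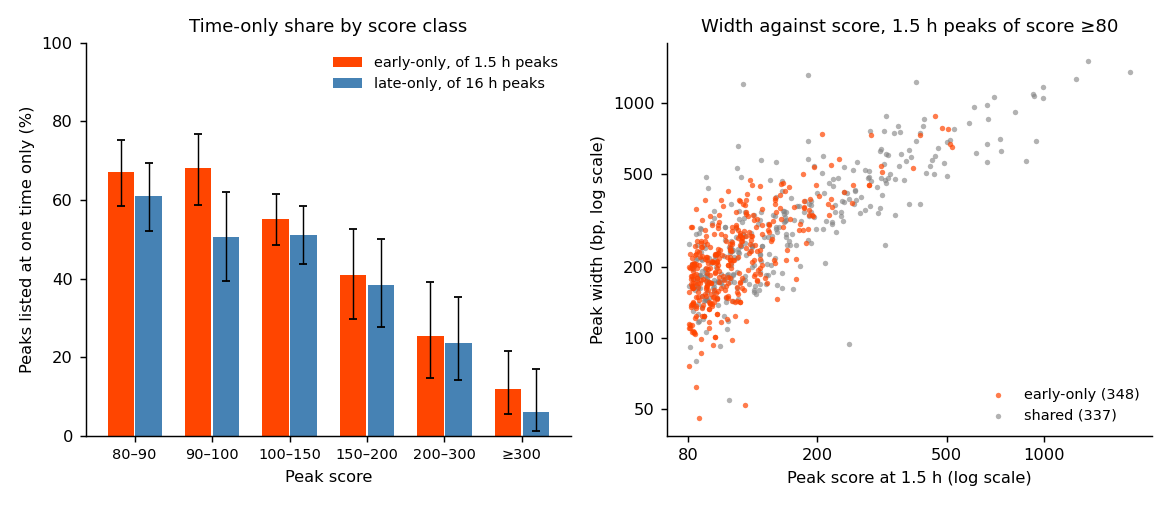
Left, the share of peaks found at one time only in each score class (bars, percent, with 95% exact binomial intervals), for early-only sites among 1.5 h peaks and late-only peaks among 16 h peaks. Right, peak width (bp) against 1.5 h score, both on log scales, with 1 point per peak. The early-only share is 67.2% at scores of 80 to 90 and 12.0% at 300 or more, and early-only points lie within the cloud of shared points.

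The threshold of 80 fell in a dense part of the list. The early-only sites just inside it were chr3:176915153-176915263 and chr14:69014247-69014447, each with a score of 80.6, followed by chr20:4171927-4172084 at 80.7, and chr6:105822043-105822118 and chr13:110999552-110999666, each at 80.8. Just outside it were early-only peaks at chr14:69013913-69014127 with a score of 79.8, chr6:41681280-41681603 and chr13:36498073-36498217 with 79.5 each, chr3:58860157-58860420 with 79.4 and chr13:106466803-106466926 with 79.3. The chromosome 14 peaks on either side of the threshold lay 119 bp from each other.

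Most early-only sites were far from any 16 h peak. The gap to the nearest one had a median of 93.5 kb, with quartiles of 6.36 and 437 kb and a maximum of 3218 kb. No 16 h peak lay within 10 kb of 245 sites (70.4%, interval 65.3 to 75.2%), and none within 100 kb of 173 (49.7%, 44.3 to 55.1%) or within 1000 kb of 30 (8.62%, 5.89 to 12.1%). Late-only peaks of score 80 or more were farther still from the other list, with no 1.5 h peak within 10 kb of 211 (80.2%, 74.9 to 84.9%). None lay within 1000 kb of 67 of 263 (25.5%, 20.3 to 31.2%). The 67 include 2 narrow peaks (66 and 65 bp) on chromosome Y, where the 1.5 h list held no peak. The 1.5 h list that they were measured against is the shorter one, with 2206 peaks against the 3280 of the 16 h list, so these shares are not on an equal footing. Shared 1.5 h peaks of score 80 or more were measured against the same 16 h list as early-only sites. A further, non-overlapping 16 h peak lay within 10 kb of 120 of 337 (35.6%, 30.5 to 41.0%), against 103 of 348 early-only sites (29.6%, 24.8 to 34.7%). Within 100 kb the shares were 57.6% (52.1 to 62.9%) and 50.3% (44.9 to 55.7%). Most shared peaks thus also had no further 16 h peak within 10 kb. The intervals overlapped at both distances, which does not show that the classes are alike, and a difference was not tested.

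The sites fell into 4 settings by what lay beside them. Directly beside a shared 1.5 h peak, at a gap of up to 500 bp, were 50 sites (14.4%, interval 10.9 to 18.5%), and 49 of these also had a 16 h peak within 500 bp. Beside a 16 h peak but no shared 1.5 h peak were 12 (3.45%, 1.79 to 5.95%). Another 41 (11.8%, 8.59 to 15.6%) had their nearest 16 h peak between 500 bp and 10 kb away, and the remaining 245 had none within 10 kb. Median scores in these settings were 96.9, 117, 106 and 106, and median widths were 178, 204, 234 and 217 bp. Of the 23 sites that scored 200 or more, 2 lay beside a shared peak, 2 had a 16 h peak at 500 bp to 10 kb, and 19 had none within 10 kb.

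Some early-only sites were thus neighbours of sites listed at both times. For the 50 beside a shared 1.5 h peak, that shared peak had a median score of 135, and 17 of the 50 early-only sites scored higher than it. In all, 61 sites (17.5%, interval 13.7 to 21.9%) had a 16 h peak within 500 bp, at a median gap of 131 bp. Those 16 h peaks had a median score of 78.1 (quartiles 58.3 and 110, range 50.1 to 469), against 56.2 for all 16 h peaks. A 16 h peak nearest to several early-only sites was counted once for each, so the 2 medians do not compare like sets. In 48 of the 61 cases the 16 h peak was itself shared, overlapping another 1.5 h peak. For the 12 sites beside a 16 h peak but no shared 1.5 h peak, the median score of that 16 h peak was 56.4. Of the 61, 30 had a neighbouring 16 h peak of score 80 or more, 16 lay within 50 bp of it, and 1 touched it with no base between. That site, chr7:90208596-90208749, scored 94.4, and the adjoining 16 h peak scored 115. Shared 1.5 h peaks of score 80 or more had a further, non-overlapping 16 h peak within 500 bp in 20.5% of cases (69 of 337, 16.3 to 25.2%), whose interval overlaps that of early-only sites.

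**Figure D2:**
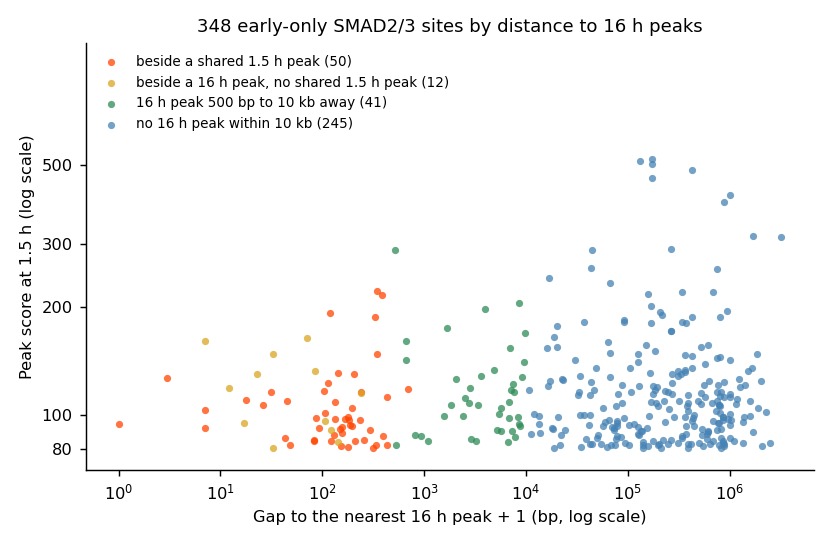
Score at 1.5 h against the gap to the nearest 16 h peak plus 1 bp, both on log scales, with 1 point per early-only site and colours for the 4 settings. The 9 sites that score 300 or more all lie in the setting with no 16 h peak within 10 kb. That setting holds 245 of all 348 sites (70.4%).

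The 25 early-only sites of highest score lay on 12 chromosomes, scored 195 to 519 and were 334 to 879 bp wide (median 527 bp). No 16 h peak lay within 10 kb of 20 of them or within 100 kb of 16. Over all 348 early-only sites, 245 (70.4%) had none within 10 kb and 173 (49.7%) none within 100 kb. For 19 of the 25 the nearest 16 h peak scored under 60. Such scores were common in that list, where the median of all peaks was 56.2. By their company in the 1.5 h list they divide into 9 with no other peak within 10 kb, 2 with a peak at 500 bp to 10 kb, and 14 with one within 500 bp.

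The 9 that stood alone included the 3 highest of all. The first was chr5:78075345-78075994, 650 bp wide with a score of 519, whose nearest 1.5 h peak was another early-only site 79.5 kb away with a score of 184. Chromosome 16 held chr16:65692217-65692883 (score 513, 667 bp) and chr16:56640826-56641594 (score 504, 769 bp), with no other 1.5 h peak for 863 and 1012 kb. It also held chr16:72325234-72325771 (score 314, 538 bp), which had the largest gap to a 16 h peak of all 348 sites, 3218 kb. On chromosome 1, chr1:17559865-17560590 scored 292 over 726 bp, and the nearest peaks of both lists were 266 kb away, scoring 84.7 at 16 h and 58.2 at 1.5 h. The other solitary ones were chr5:133801939-133802387 (score 288), chr9:99620410-99620828 (score 242), chr6:14733083-14733661 (score 234) and chr10:89912565-89912898 (score 218). The last of these had no other 1.5 h peak for 2074 kb, and its nearest 16 h peak was 159 kb away with a score of 61.7.

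The 14 with close company mostly paired a high peak with a much lower one. The widest early-only site, chr5:148345380-148346258, was 879 bp wide and scored 459, with a peak of score 51.5 beginning 16 bp beyond it. At chr16:86857962-86858742 a peak of score 483 stood 22 bp from another early-only site of score 146. Further examples were chr2:201809174-201809904, which scored 413 with a peak of 57.6 at 192 bp, and chr9:110803049-110803575, which scored 394 with a peak of 53.5 at 3 bp. The chromosome 3 site chr3:183088529-183089035 scored 317 and had an early-only site of score 89.6 at 25 bp. In these 5 cases the neighbour was also early-only, and the nearest 16 h peak was between 174 and 1681 kb away.

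Others of the 14 had neighbours of similar kind. The site chr9:118862880-118863328 scored 258, and an early-only site of score 124 lay 5 bp away. At chr20:14269547-14269920 the score was 256, with a peak of 78.5 at 83 bp. The site chr5:148513812-148514355 scored 220, with an early-only site of score 87.0 at 173 bp. On chromosome 8, chr8:128403421-128403821 scored 202 with a peak of 60.4 at 4 bp, and chr8:41180730-41181261 scored 195 with a peak of 53.1 at 20 bp. None of these 5 had a 16 h peak within 10 kb.

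A 16 h peak within 10 kb was present for 5 of the 25. The site chr11:130451021-130451381, of score 221, had a 16 h peak of score 91.8 at 342 bp. Likewise chr9:6567154-6567526, of score 216, had one of score 110 at 386 bp. The site chr1:1280082-1280530, of score 288, had one of 51.5 at 517 bp. For chr2:216764927-216765374, of score 198, the gap was 3.94 kb to a 16 h peak of 50.5, and for chr10:74091237-74091973, of score 206, it was 8.53 kb to one of 105. In the remaining site of the 25, chr19:13961835-13962223 with a score of 221, the nearest 16 h peak was 683 kb away and a 1.5 h peak of score 51.2 lay 3.42 kb off.

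At the low end of width, chr5:1327889-1327934 was the narrowest early-only site, with 46 bp and a score of 86.3. A 16 h peak of score 102 lay 42 bp from it, and a shared 1.5 h peak of score 64.3 lay 491 bp from it.

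Early-only sites often had another 1.5 h peak close by, as shared peaks of the same list did. Within 500 bp, 159 of 348 had one (45.7%, interval 40.4 to 51.1%), against 179 of 337 shared 1.5 h peaks (53.1%, 47.6 to 58.5%). Late-only peaks had another 16 h peak within 500 bp in 55 of 263 cases (20.9%, 16.2 to 26.3%), and shared 16 h peaks of score 80 or more in 106 of 326 (32.5%, 27.5 to 37.9%). The intervals of the 2 classes of the 1.5 h list overlapped each other and lay above both classes of the 16 h list. Among peaks of score 80 or more, close neighbours were therefore more frequent in both classes of the 1.5 h list and were not particular to early-only sites. Peaks below that score were not compared. Each list is 1 library and neighbouring peaks count each other, so the intervals do not measure a difference between times. The median gap in the 159 cases was 46 bp (quartiles 19 and 147), and 25 sites had another peak within 10 bp. The nearest neighbour was another early-only site of score 80 or more in 44 cases, an early-only peak of score under 80 in 73, and a shared peak in 42. In 108 of the 159 the early-only site scored higher than this neighbour. The rule fixed that outcome in the 73 cases where the neighbour scored under 80.

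**Figure D3:**
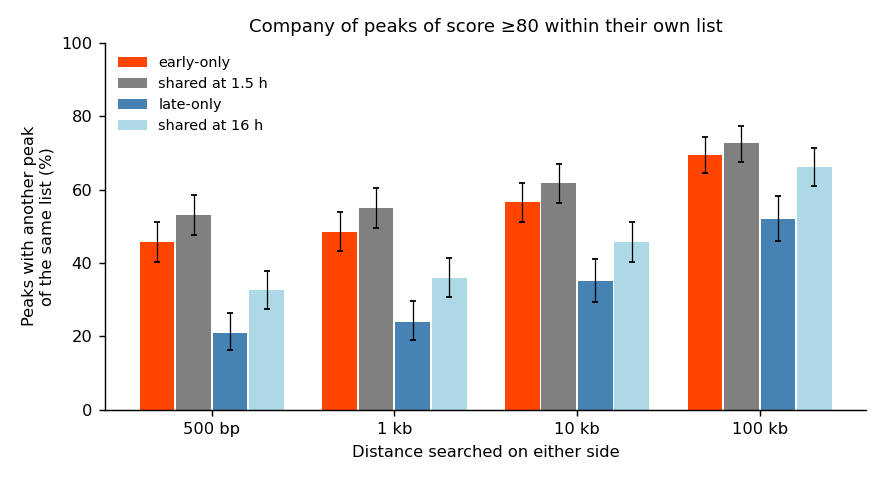
Share of peaks of score 80 or more (bars, percent, with 95% exact binomial intervals) that have another peak of their own list within each distance, for the early-only, shared 1.5 h, late-only and shared 16 h classes. Early-only sites have one within 500 bp in 45.7% of cases and late-only peaks in 20.9%.

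Counted as stretches, the early-only sites were fewer. When 1.5 h peaks at gaps of up to 500 bp were joined, the 348 sites lay in 315 stretches, of which 189 were a single peak and 126 held between 2 and 6 peaks, the longest 1719 bp. A shared peak was part of 41 stretches, which held 52 early-only sites. The other 274 stretches, with 296 sites, had no shared peak, and 228 of these had no 16 h peak within 10 kb. Fully solitary sites, with no other peak of either list within 10 kb, numbered 139 (39.9%, interval 34.8 to 45.3%), and their median score was 101, with 9 at 200 or more. Among late-only peaks 152 were solitary in this sense (57.8%, 51.6 to 63.8%), with a median score of 103 and 10 at 200 or more.

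Groups of early-only sites at most 10 kb apart were few. Of 305 such groups, 271 were single sites, 25 were pairs and 9 held 3 sites. In 18 of the pairs the sites were within 500 bp of each other, and in 13 neither site had a 16 h peak within 10 kb. The 9 groups of 3 were of 2 kinds, those that flanked a shared site and those with no 16 h peak nearby, apart from 1 on chromosome 3.

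In 3 groups the early-only sites flanked shared peaks. At chr13:31317113-31318687, early-only sites of score 84.5, 188 and 118 lay on both sides of a shared peak of score 664 and 557 bp, under which the 16 h peak was 149 bp wide and scored 58.3. At chr13:110999317-110999995, sites of score 85.1, 80.8 and 109 filled the space between shared peaks of score 117 and 403, and the 3 peaks of the 16 h list there, which scored 76.6, 58.0 and 184, lay under those shared peaks. At chr7:90208444-90209234, sites of score 98.5, 94.4 and 96.5 surrounded a shared peak of only 60.9, whose 16 h partner scored 115. In these groups the 16 h signal was listed over a shorter stretch than the 1.5 h signal. That follows largely from the choice of groups, which had to hold 1.5 h peaks without 16 h overlap. At the chromosome 7 group the 16 h peak itself was wider than the shared 1.5 h peak, 204 against 105 bp.

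In 5 groups no 16 h peak lay within 10 kb. The group at chr9:118862880-118864033 had scores of 258, 124 and 113, with 3 further early-only peaks of 54.9 to 67.6, and its nearest 16 h peak was 42.7 kb away. At chr9:110803049-110811833 the scores were 394, 112 and 96.6, the last 7.39 kb from the others, and the nearest 16 h peak was 867 kb away. The group at chr5:148513812-148515370 had scores of 220, 87.0 and 182 with a peak of 54.6 among them. At chr10:78923495-78924112 sites of 88.1, 140 and 92.6 followed each other within 618 bp. At chr17:38666445-38678117 scores of 93.7, 142 and 114 were spread over 11.7 kb, with 4 weaker early-only peaks of 52.7 to 78.1 and no 16 h peak for 1000 kb. The group at chr3:137796999-137801592 differed from both kinds, with scores of 87.5, 119 and 84.2 and a 16 h peak of 52.3, which overlapped no 1.5 h peak, at 923 bp from the first site.

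**Figure D4:**
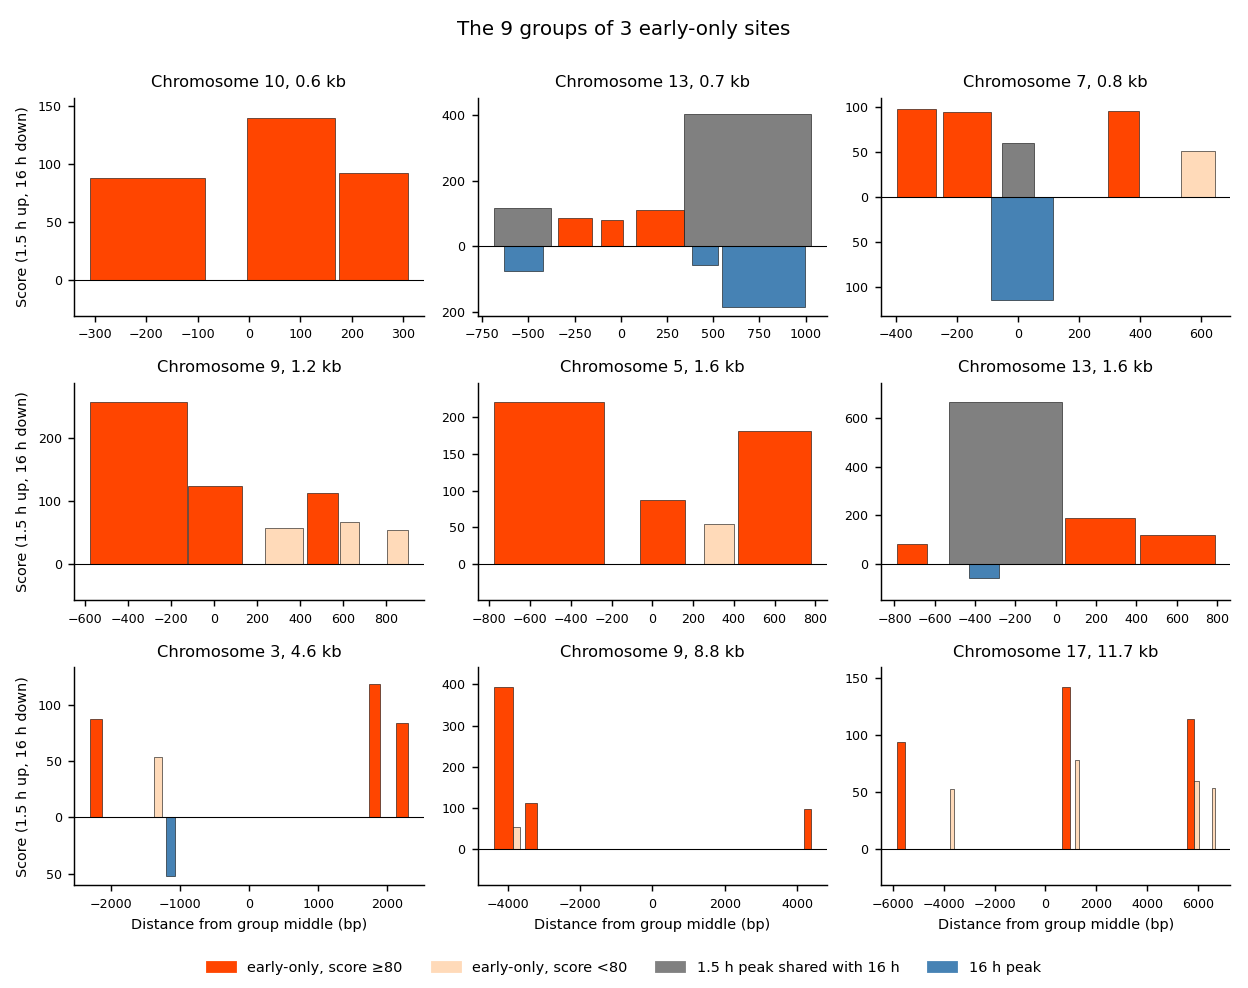
Maps of the 9 groups of 3 early-only sites, each as distance from the group's middle (bp) with its length in the panel title. Bars span each peak, and their height is the score of 1.5 h peaks (upwards) and of 16 h peaks (downwards). The chromosome 7 group and both chromosome 13 groups show early-only sites beside shared peaks, while 5 panels hold no 16 h peak.

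Early-only sites occurred on 23 chromosomes, chromosomes 1 to 22 and X. They outnumbered the shared 1.5 h peaks of score 80 or more on 11 of these, were fewer on 9 and equal in number on 3. Chromosome 1 held 40 early-only sites and 29 shared peaks, chromosome 2 held 31 and 21, chromosome 9 held 31 and 22, and chromosome 5 held 26 and 21. Among the 9 with fewer early-only sites, the largest gaps were on chromosomes 6, with 14 against 24, 18, with 9 against 17, and 20, with 14 against 21. The other 6 were chromosomes 7 (16 against 22), 8 (14 against 19), 11 (17 against 19), 14 (7 against 9), 19 (10 against 15) and 21 (2 against 7). The early-only share of peaks scoring 80 or more was lowest on chromosome 21, with 22.2% (2 of 9), and highest on chromosome X, with 3 of 4 peaks. On every one of the 23 the interval included the 50.8% of the whole list. On chromosome 16, which held 4 of the 10 highest early-only sites, the share was 59.1% (36.4 to 79.3%, 13 of 22).

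**Figure D5:**
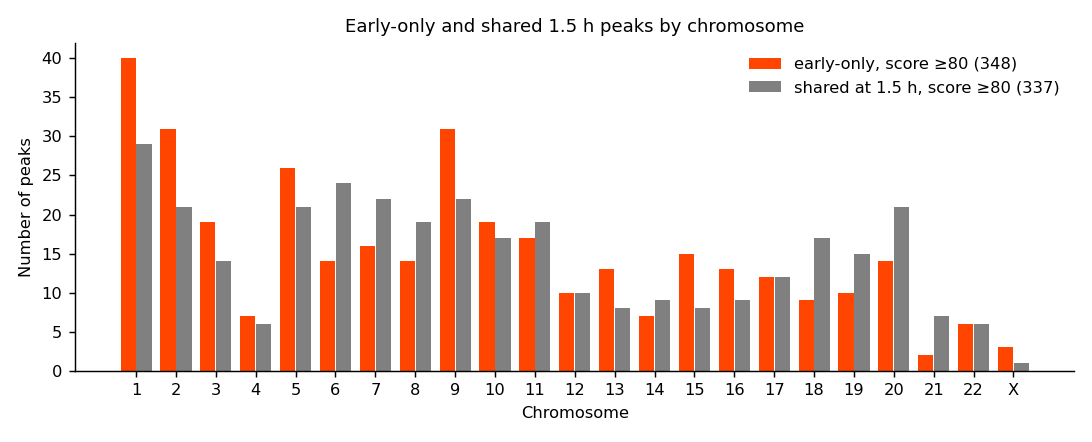
Number of early-only sites (left bar) and shared 1.5 h peaks of score 80 or more (right bar) on each chromosome. Chromosome 1 holds most of both, 40 and 29, and the largest excess of shared peaks is on chromosome 6, with 14 early-only sites and 24 shared peaks.

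Along the chromosomes the sites were spread over 162 windows of 10 Mb, of which 8 held 5 or more. The fullest was the window between 110 and 120 Mb of chromosome 9, with 12 early-only sites in 9 stretches, 3 shared 1.5 h peaks of score 80 or more and 0 late-only peaks of that score. None of its 12 sites had a 16 h peak within 10 kb, although the 16 h list held 21 peaks of any score there, and the gaps ran between 20.3 and 875 kb (median 71.8 kb). Over all 348 early-only sites, 70.4% had no 16 h peak within 10 kb. Their scores ran between 82.5 and 394 with a median of 117. Besides the 2 groups of 3 described above, the window held chr9:118706870-118707174 with a score of 177, chr9:118024729-118025032 with 135, chr9:117670326-117670736 with 121, chr9:111235609-111235794 with 93.1, and chr9:114872773-114872956 and chr9:118453602-118453805 with 82.5 each. The window was singled out after its count was seen.

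The next window, between 230 and 240 Mb of chromosome 1, held 9 early-only sites in 8 stretches, 2 shared peaks and 0 late-only peaks of score 80 or more. The sites scored 81.4 to 150, the highest being chr1:233248969-233249115 with 150 and a partner of 117 at 19 bp, followed by chr1:238036952-238037132 with 138, which had no other 1.5 h peak for 1022 kb. The window after that, between 70 and 80 Mb of chromosome 10, differed in that late-only peaks were present as well. It held 8 early-only sites, 4 shared 1.5 h peaks and 4 late-only peaks of score 80 or more, and 5 of its 8 sites had no 16 h peak within 10 kb. Its highest site was the one of score 206 at chr10:74091237-74091973, and chr10:74020246-74020603 followed with 154.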

How the data were processed

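SMAD2/3 ChIP-seq peaks of MCF10A MII cells were taken from the authors' deposited lists, 1 per library, with 5 columns and no header. Per the submitters' processing notes, Bowtie 1.1.0, Picard and MACS 1.4.2 were used with hg19. The sources used here do not give the settings, the handling of duplicates or the use of the input. The value of each peak is the score the authors deposited, whose definition is not given. The lowest was 50.02 at 1.5 h and 50 at 16 h, so weaker binding is missing from both lists. Scores ranked and classed peaks within a list, and no ratio of scores between libraries was computed. Where scores or score classes of both libraries are printed side by side, they were not scaled to each other. A fixed threshold lists more peaks from a deeper library, and closely spaced peaks count a broad region several times.

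Samples were grouped by the treatment label. Early-only sites had a score of at least 80 and shared no base with a 16 h peak. A gap is the number of bases between peaks. Near means at most 500 bp and far more than 10 kb. The members and all comparisons were chosen with earlier results of these data known. Sites named were the 25 highest, 5 on each side of the threshold, groups of 3 or more within 10 kb, and the widest and narrowest. The site touching a 16 h peak, the members of the fullest windows of 10 Mb and those classes of distance not listed in the design were added after values were seen. Motifs, gene positions and 16 gene lists were planned but not run, for want of a genome of the files' build. The gene and promoter tables at hand describe GRCh38, and coordinates were not converted. Overlap and gap code was tested on simulated lists with planted overlaps. The work used pandas 2.3.3, scipy 1.17.1, numpy 2.4.6 and matplotlib 3.10.9 in Python 3.11.15.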

Additional observations from a re-analysis of the deposited data

How the results depend on the processing

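The number of early-only sites depends on the score threshold by construction, with 185 at a score of at least 100 and 957 at a score of at least 60, against 348. It stayed within 1.5 times of 348 with a 16 h peak within 500 bp counted as overlap (287) and with 16 h peaks of score 60 or more only (388). The same held with peaks under 500 bp apart merged in both lists (274). A reciprocal overlap of 50% was also inside this limit, but it gave 488 early-only sites among the same 685 peaks of score 80 or more. The division into early-only and shared peaks thus depended on the overlap rule. Merging was added after seeing the data. The share with no 16 h peak within 10 kb was 70.4%. It moved to 80.4% when 16 h peaks under a score of 60 were left out, and to 83.2% with merged peaks. Leaving out those 16 h peaks removes possible neighbours and also adds sites to the set (388 in place of 348), and these effects were not separated. The share with a shared 1.5 h peak within 10 kb was 21.6%, and it moved to 15.5% at a score of at least 60 (the cause was not tested) and to 7.66% with merged peaks, where a site and its close shared neighbour become 1 region. The other values stayed within the interval of the value reported. Alternatives for motifs and gene positions were not run. No paired analysis was possible because a single library stands for each time, and leaving one out would remove the comparison. The unknown depth limits every statement about absence at 16 h.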

Other observations

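A single early-only site lay at the very start of a chromosome. It was chr1:10232-10283, 52 bp wide with a score of 120, and it was singled out after its position was seen. Its nearest 1.5 h peak was 867 kb away with a score of 53.9, and its nearest 16 h peak was 1271 kb away with a score of 51.5. Only the narrowest site, with 46 bp, was narrower. The input DNA was not examined at this position, so whether the peak reflects binding was not tested.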
